A study of Homo sapiens with 24 samples.

Results

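LY294002, an inhibitor of PI3 kinase, was set directly against Rapamycin, an inhibitor of mTOR complex 1, in one line of SW480 cells, which come from a human colon cancer. The comparison takes the 4 arrays that the titles give to these inhibitors in the NFIL3 line, 2 per inhibitor, out of 24 arrays in the series, and covers all 12141 genes that were detected. The question is which RNAs differ between cells kept in the PI3 kinase inhibitor and cells kept in the mTOR inhibitor. RNA was measured on Illumina HumanHT-12 bead arrays, on which each gene is read by one or more oligonucleotide probes.

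The NFIL3 line is SW480 infected with a pBABE-puro retrovirus carrying NFIL3, a repressor of the bZIP family. Its cells were kept for 24 h in 3.3 µM LY294002, in 33.3 nM Rapamycin or in the solvent DMSO, so the inhibitors differ in dose and each was used at 1 dose and 1 time. The BOP1 and CKS2 lines, made with the same vector, were kept in LY294002 or DMSO at the same dose and time and serve here as arrays that the direct comparison does not use. By their labels, the 2 arrays of each group are biological replicates. Whether a line is a clone or a pool is not stated in the labels. The introduced gene was not visible: in DMSO, the mean log2 level of the NFIL3 probe was 10.42 in NFIL3 cells against 10.43 in control cells.

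PI3 kinase makes a membrane lipid that recruits the kinase AKT, which in turn phosphorylates FOXO transcription factors and keeps them out of the nucleus. AKT also relieves the TSC brake on mTOR complex 1, which promotes ribosome production, translation and the synthesis of amino acids, nucleotides and lipids. Rapamycin reaches mainly the second arm. LY294002 reaches both, and it is also known to bind mTOR itself, casein kinase and BET bromodomain proteins.

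All levels below are on a log2 scale after background correction and quantile normalization, and a difference is LY294002 minus Rapamycin unless another is named. A gene was called changed when limma gave an adjusted p under 0.05 over all genes tested. The labelled cell type was checked first: 6 of 10 colon epithelial markers (KRT8, KRT18, KRT19, EPCAM, CDH1 and CDX2) were detected on all 4 arrays, and VIL1, CDX1, CEACAM5 and CEACAM6 on none. Over all 24 arrays, 17984 to 19958 probes were detected and replicates correlated at r = 0.991 to 0.996 across genes. On the second principal component of all genes, which held 13.5% of the variance, the LY294002 arrays of the NFIL3 line stood apart from other LY294002 arrays, at 17.29 and 17.35 against -5.77 to -0.09 in the BOP1 and CKS2 lines. The SB203580 arrays of the CKS2 and NFIL3 lines, kept in a p38 kinase inhibitor, lay at 15.8 to 18.5 on that axis and the Rapamycin arrays at -8.38 and -7.77. On the first component, which held 38.99%, all LY294002 arrays lay together, at 22.7 to 29.8, against 12.1 and 12.7 in Rapamycin and -5.36 and -3.72 in DMSO in the NFIL3 line. For this reason the named genes and the gene lists were also computed with the BOP1 and CKS2 lines in place of those arrays, as LY294002 minus DMSO there less Rapamycin minus DMSO in the NFIL3 line. This is called the cross-line comparison, and it was added after the data were seen. Of 138 named genes called in the direct comparison, 25 passed in it with the same sign and 113 did not, and a called gene described below without a cross-line result is one that did not pass.

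Of 12141 genes, 1018 (8.38%) were higher and 982 (8.09%) lower in LY294002 than in Rapamycin, 2000 in all (16.5%). By more than 2-fold, 116 were higher and 23 lower. The median difference over all genes was -0.01. Against DMSO in the same line, LY294002 raised 1472 genes (12.1%) and lowered 1676 (13.8%), and Rapamycin raised 428 (3.53%) and lowered 496 (4.09%). Those counts use the same DMSO arrays and are only set side by side. They were 1635 and 260 genes without DMSO array 2, 1656 for LY294002 without its array 2, and, for Rapamycin, 164 without DMSO array 1, 341 without its array 1 and 170 without its array 2. Of 4992 kept probes without a listed gene, tested apart, 311 (6.23%) were higher and 190 (3.81%) lower in LY294002 than in Rapamycin. In a fit to only the 4 arrays the direct count was 764 genes, 475 higher and 289 lower. Leaving out 1 array gave 1244 without LY294002 array 1, 880 without LY294002 array 2, 1139 without Rapamycin array 1 and 894 without Rapamycin array 2. The cross-line comparison called 80 genes higher (0.659%) and 71 lower (0.585%), with a median standard error of 0.158 against 0.129 in the direct comparison.

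IRS2, LAMA2 and ASNS show 3 different relations between the inhibitors. IRS2 encodes an adaptor that links insulin and IGF receptors to PI3 kinase and is a known FOXO target. Its levels were 10.69 and 10.63 in LY294002, 10.14 and 10.05 in Rapamycin and 9.70 and 9.49 in DMSO, and the 3 groups did not overlap. The difference was 0.56 (SE 0.09, limma adjusted p = 0.00108, n = 2 against 2), or 1.48-fold higher in LY294002. Both inhibitors raised IRS2 over DMSO, LY294002 by 1.06 and Rapamycin by 0.50. LY294002 raised it by 1.20 in the BOP1 and CKS2 lines, and the cross-line comparison also called it higher (0.69, adjusted p = 0.00952).

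LAMA2 encodes the laminin alpha 2 chain of basement membranes. It stood at 6.93 and 6.99 in LY294002, 8.15 and 8.18 in Rapamycin and 8.87 and 8.82 in DMSO. Here too the groups did not overlap, and the order was the reverse of that of IRS2. LAMA2 was 2.30-fold lower in LY294002 than in Rapamycin (difference -1.20, SE 0.17, adjusted p = 0.00042), and a second LAMA2 probe differed by -1.45. Against DMSO it fell by 1.88 with LY294002 and by 0.68 with Rapamycin, and by 2.06 with LY294002 in the BOP1 and CKS2 lines (cross-line difference -1.38, adjusted p = 0.00636). The calls of IRS2 and LAMA2 held whichever of the 4 arrays was left out.

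ASNS, asparagine synthetase and a target of the transcription factor ATF4, fell with both inhibitors. Its levels were 11.96 and 11.81 in LY294002, 11.75 and 11.81 in Rapamycin and 12.79 and 12.86 in DMSO, so both inhibitor groups lay below both DMSO arrays and overlapped each other. The fall against DMSO was 0.94 with LY294002 and 1.04 with Rapamycin. The direct difference of 0.10 (SE 0.11, adjusted p = 0.573) did not pass.

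**Figure D1:**
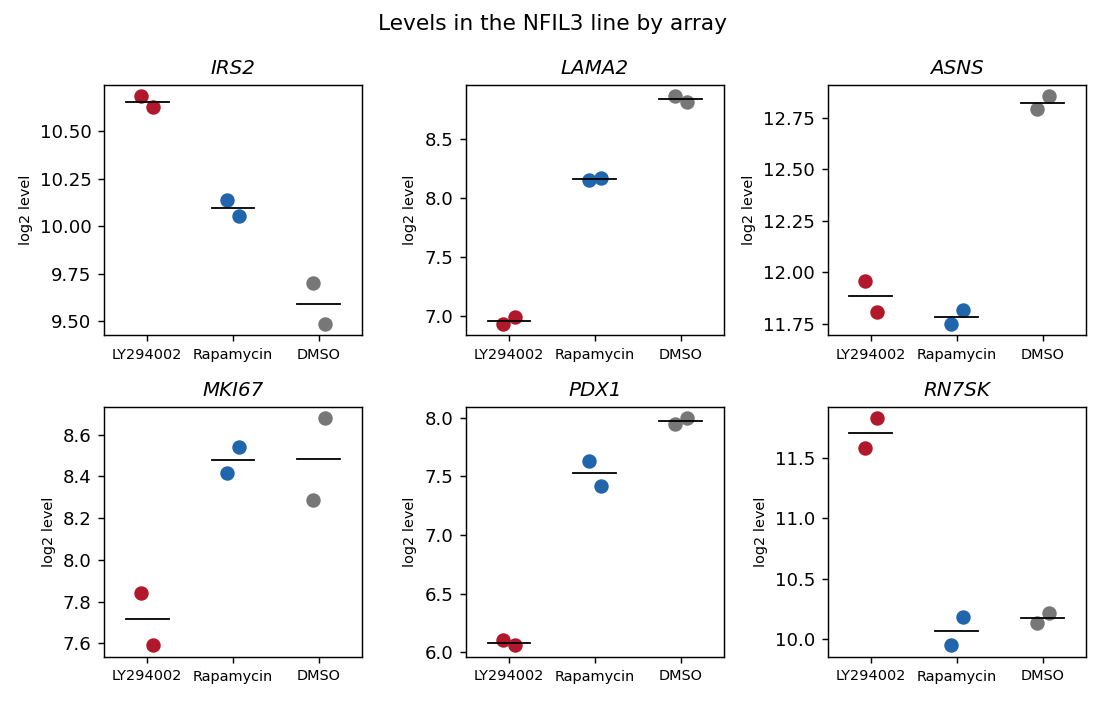
Log2 levels of 6 genes on the 2 arrays of each group of the NFIL3 line, with LY294002, Rapamycin and DMSO from left to right, 1 point per array and a line at the group mean; each panel has its own axis, which does not start at 0. IRS2 and LAMA2 step from LY294002 through Rapamycin to DMSO in opposite directions, ASNS is low in both inhibitors, and MKI67, PDX1 and RN7SK set the LY294002 arrays apart from the other 4.

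Genes of mitosis made up the list with the largest number of members lower in LY294002 than in Rapamycin. Of 30 genes of the G2 phase and mitosis, 15 were lower and 0 higher, and 15 did not pass. The median difference was -0.42. In RNA of whole cultures, fewer cells in this phase and less RNA per cell cannot be told apart. Against DMSO, LY294002 lowered 24 and Rapamycin 3 (13.8% and 4.09% of all genes). In the BOP1 and CKS2 lines LY294002 lowered 29 of 30 and raised 1 (background there 21.2% lower and 18.6% higher). FOXM1, a transcription factor that drives the genes of this phase, stood at 9.90 and 9.50 in LY294002 and 10.70 and 10.49 in Rapamycin, with a DMSO mean of 10.63. It was lower by 0.90 (SE 0.16, adjusted p = 0.0015), and a second FOXM1 probe differed by -0.81.

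MKI67, the gene of the proliferation antigen Ki-67, had 7.84 and 7.59 in LY294002 and 8.41 and 8.54 in Rapamycin (difference -0.76, SE 0.16, adjusted p = 0.00473). Its DMSO levels of 8.29 and 8.68 lay on both sides of the Rapamycin values. BIRC5, which encodes survivin, had 11.23 and 10.90 in LY294002 and 11.60 and 11.63 in Rapamycin (difference -0.55, adjusted p = 0.00455). TPX2, a spindle assembly factor that activates Aurora A, had 11.52 and 11.02 in LY294002 and 12.04 and 11.90 in Rapamycin (difference -0.70, adjusted p = 0.00734). In all of these genes LY294002 array 2 was the lowest of the 4 arrays. The other members called were AURKB, CDK1, CDC20, MAD2L1, CENPA, KIF20A, PTTG1, KIF23, NUSAP1, CCNA2 and CDC25C, named here after their values were seen, with differences between -0.67 and -0.40. The only member with a positive difference was CDC25B, at 0.11 (adjusted p = 0.533).

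The count of mitotic genes depended on single arrays. It was 20 lower without LY294002 array 1 but 1 without LY294002 array 2, where FOXM1 alone passed (adjusted p = 0.0289), 8 without Rapamycin array 1 and 4 without Rapamycin array 2, with medians between -0.61 and -0.21. Without LY294002 array 2, BIRC5 stood at an adjusted p of 0.0726, MKI67 at 0.0586 and TPX2 at 0.112. TPX2 also missed the threshold without Rapamycin array 1 (0.0569). The cross-line comparison had a median of -0.30 and called 0 of the 30 by limma (11 at an unadjusted p under 0.05).

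**Figure D2:**
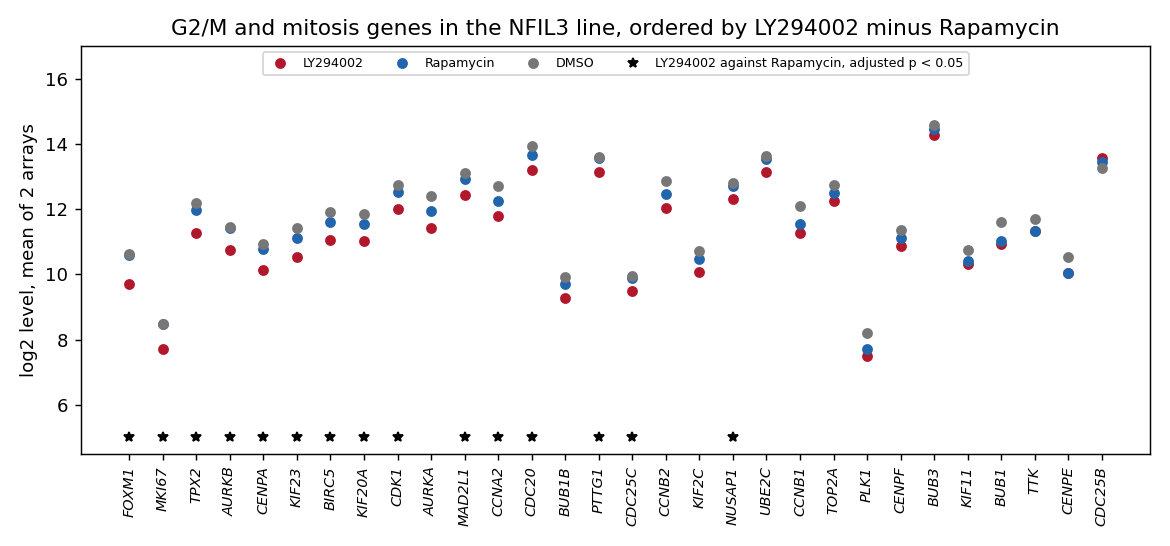
Mean log2 level of the 30 G2 and mitosis genes in the NFIL3 line (vertical axis, mean of 2 arrays), ordered from the most negative to the most positive LY294002 minus Rapamycin difference; red is LY294002, blue Rapamycin and grey DMSO, and stars mark the 15 genes with an adjusted p under 0.05. Red points lie below blue points in all but CDC25B, and by the smallest margins at the right.

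Many mitotic genes carry in their promoter a cell cycle homology region (CHR, letters TTTGAA) and CCAAT boxes, through which the DREAM and MuvB complexes are known to act. Promoters from 250 bases before to 50 bases after the gene start were read from RefSeq for GRCh38.p14 and matched by symbol for 23 of the 30 genes. TTTGAA on either strand was present in 13 of 23 (56.5%), against 9.83% of the 9702 promoters of tested genes and 15.4% of all 27305 promoters. CCAAT was present on either strand in 18 of 23 (78.3%), against 37% and 35.7%. Among members with a promoter, 7 of the 12 that were called held TTTGAA and 6 of the 11 that were not called. The letters therefore do not separate the called members from the rest, and a match is no evidence of a bound factor. The promoters of 5 of the 7 called members that hold both are shown, taken in order of limma adjusted p. The order and spacing of the letters were not tested. Capitals mark TTTGAA and CCAAT on either strand (TTCAAA and ATTGG on the other), and in MKI67 one of each overlaps.
MKI67, chr10:128126374-128126673, minus strand: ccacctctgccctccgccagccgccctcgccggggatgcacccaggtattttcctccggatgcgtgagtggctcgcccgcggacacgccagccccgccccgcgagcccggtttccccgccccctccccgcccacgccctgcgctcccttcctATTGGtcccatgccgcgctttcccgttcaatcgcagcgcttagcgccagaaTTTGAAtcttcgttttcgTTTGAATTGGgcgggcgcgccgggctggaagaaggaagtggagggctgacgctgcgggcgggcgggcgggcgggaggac
CDK1, chr10:60778081-60778380, plus strand: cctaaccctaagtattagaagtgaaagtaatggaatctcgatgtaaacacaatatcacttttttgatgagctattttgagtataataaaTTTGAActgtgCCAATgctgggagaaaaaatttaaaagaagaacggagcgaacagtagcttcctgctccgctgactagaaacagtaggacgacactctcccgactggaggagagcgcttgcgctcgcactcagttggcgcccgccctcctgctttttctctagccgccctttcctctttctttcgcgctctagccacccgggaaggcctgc
CDC20, chr1:43358731-43359030, plus strand: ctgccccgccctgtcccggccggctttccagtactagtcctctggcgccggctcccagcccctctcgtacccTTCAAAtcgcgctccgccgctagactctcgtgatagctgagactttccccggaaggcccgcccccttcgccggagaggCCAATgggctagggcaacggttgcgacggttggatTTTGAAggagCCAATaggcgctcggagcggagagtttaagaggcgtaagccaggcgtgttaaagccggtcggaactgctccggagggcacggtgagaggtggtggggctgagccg
MAD2L1, chr4:120066799-120067098, minus strand: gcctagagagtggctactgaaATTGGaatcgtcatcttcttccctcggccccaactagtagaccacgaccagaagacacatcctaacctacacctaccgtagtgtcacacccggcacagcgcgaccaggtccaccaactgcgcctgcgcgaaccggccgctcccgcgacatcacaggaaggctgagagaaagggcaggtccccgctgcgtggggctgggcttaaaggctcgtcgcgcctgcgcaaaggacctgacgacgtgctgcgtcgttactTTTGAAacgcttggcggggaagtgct
CENPA, chr2:26785806-26786105, plus strand: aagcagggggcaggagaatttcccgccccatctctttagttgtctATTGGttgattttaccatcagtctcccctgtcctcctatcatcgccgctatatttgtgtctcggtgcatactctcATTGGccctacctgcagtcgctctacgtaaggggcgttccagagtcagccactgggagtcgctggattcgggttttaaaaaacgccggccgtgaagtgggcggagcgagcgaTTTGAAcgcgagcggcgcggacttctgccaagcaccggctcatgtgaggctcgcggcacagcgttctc

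Genes of S phase entry and DNA replication were lower as well. Of 32 tested, 12 were lower and 1 higher in LY294002, with a median of -0.23. LY294002 lowered 17 against DMSO and Rapamycin 2 (13.8% and 4.09% of all genes). E2F8, an E2F family repressor that is itself induced in S phase, had 6.92 and 6.56 in LY294002 and 7.71 and 7.76 in Rapamycin, with 7.81 and 7.82 in DMSO (difference -0.999, SE 0.17, adjusted p = 0.00127). The Rapamycin arrays lay just below the DMSO arrays and the LY294002 arrays far below both.

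MCM5, a subunit of the replicative helicase, had 11.55 and 11.26 in LY294002, 12.19 and 12.24 in Rapamycin and 11.61 and 11.88 in DMSO (difference -0.81, SE 0.15, adjusted p = 0.00191). Its Rapamycin arrays were the highest of the 6. CDT1, which loads that helicase, had 11.04 and 10.82 in LY294002 and 11.44 and 11.55 in Rapamycin (difference -0.56, adjusted p = 0.00238). The one member that was higher was CDKN2B, the gene of the CDK4 and CDK6 inhibitor p15, with 8.99 and 8.82 in LY294002 and 8.37 and 8.10 in Rapamycin (difference 0.67, adjusted p = 0.00178, and 0.24 on a second probe). These 4 calls held with any array left out, while the count of lower members ran from 4 without Rapamycin array 2 through 5 without LY294002 array 2 and 7 without Rapamycin array 1 to 12 without LY294002 array 1. In the cross-line comparison the median was -0.15 and MCM5 was the only member called (-0.77, adjusted p = 0.049).

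Of 20 genes of nucleotide synthesis, which mTOR complex 1 is known to promote, 8 were lower in LY294002 than in Rapamycin and 0 higher (median -0.21). CAD, the enzyme that carries out the opening steps of pyrimidine synthesis, had 10.16 and 10.16 in LY294002, 10.85 and 10.77 in Rapamycin and 10.12 and 10.43 in DMSO. The difference was -0.65 (SE 0.12, adjusted p = 0.00198). CAD rose with Rapamycin against DMSO by 0.54 (adjusted p = 0.015) and stood at -0.11 with LY294002 (adjusted p = 0.521), and the LY294002 arrays lay between the DMSO arrays. RRM2, the small subunit of ribonucleotide reductase, had 11.17 and 10.80 in LY294002 and 11.81 and 11.71 in Rapamycin (difference -0.77, adjusted p = 0.00268).

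CTPS1, which makes CTP, had 10.68 and 10.60 in LY294002 and 11.31 and 11.11 in Rapamycin against 11.41 and 11.56 in DMSO (difference -0.58, adjusted p = 0.00653). PRPS1, which makes the sugar phosphate used in the synthesis of both purine and pyrimidine nucleotides, had 11.44 and 11.33 in LY294002 and 11.86 and 11.90 in Rapamycin (difference -0.49, adjusted p = 0.00711). CTPS1 missed the threshold without LY294002 array 2 (0.054) and without Rapamycin array 1 (0.065), and PRPS1 without LY294002 array 2 (0.0635) and Rapamycin array 2 (0.0503). The list's count of lower members was 8, 3, 4 and 6 without LY294002 arrays 1 and 2 and Rapamycin arrays 1 and 2 in turn. Only CAD passed in the cross-line comparison (-0.70, adjusted p = 0.0335).

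Ribosome biogenesis genes gave 9 lower and 1 higher of 25 (median -0.24). LY294002 lowered 12 against DMSO, and Rapamycin lowered 0 and raised 0 by the same limma test (4 at an unadjusted p under 0.05). Over all genes LY294002 lowered 13.8% and Rapamycin 4.09%. NOP14, a factor of the small ribosomal subunit, had 10.04 and 9.89 in LY294002, 10.59 and 10.65 in Rapamycin and 10.37 and 10.34 in DMSO (difference -0.66, SE 0.09, adjusted p = 0.000291), while a second NOP14 probe differed by 0.05. RRS1, needed for the large subunit, had 10.98 and 11.07 in LY294002 and 11.55 and 11.60 in Rapamycin (difference -0.55, adjusted p = 0.00147). UTP15, a factor of pre-ribosomal RNA transcription and processing, had 8.68 and 8.48 in LY294002 and 9.25 and 9.13 in Rapamycin (difference -0.61, adjusted p = 0.00244).

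In these genes the Rapamycin arrays lay at or above the DMSO arrays and the LY294002 arrays below both. UTP20, another processing factor, had 5.88 and 6.00 in LY294002, where 1 of 2 arrays was above background, and 6.62 and 6.93 in Rapamycin (difference -0.84, adjusted p = 0.00142). The 4 calls held with any array left out, and the count of lower members was then 6, 4, 5 and 5 without LY294002 arrays 1 and 2 and Rapamycin arrays 1 and 2 in turn. The cross-line comparison called 0 of 25 (median -0.18, 6 at an unadjusted p under 0.05). Of the genes of ribosomal proteins themselves, 1 of 27 was lower and 0 higher (median -0.01). That member was RPL5, with 14.01 and 14.12 in LY294002, 14.49 and 14.46 in Rapamycin and 14.12 and 14.08 in DMSO (difference -0.41, adjusted p = 0.00694, and 0.0568 without LY294002 array 1).

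The genes that charge transfer RNAs gave 5 lower and 1 higher of 18 (median -0.12). MARS1, the methionyl-tRNA synthetase, had 10.96 and 10.90 in LY294002, 11.53 and 11.69 in Rapamycin and 11.77 and 11.82 in DMSO (difference -0.68, SE 0.11, adjusted p = 0.00103). FARSA and FARSB encode the subunits of one enzyme, phenylalanyl-tRNA synthetase, and were called in opposite directions. FARSA had 9.51 and 9.52 in LY294002 and 10.04 and 10.04 in Rapamycin (difference -0.53, adjusted p = 0.00098). FARSB had 14.41 and 14.49 in LY294002 and 13.88 and 14.01 in Rapamycin (difference 0.51, adjusted p = 0.00178). With SB203580, mean FARSB was 14.25 in CKS2 cells and 14.31 in NFIL3 cells, against 13.93 in DMSO in both lines. WARS1, the tryptophanyl enzyme, differed by -0.50 (adjusted p = 0.00268) and by -0.24 on a second probe. The 4 calls held with any array left out, the list had 3 lower members without LY294002 array 1, and the cross-line comparison called 0 of 18 (4 at an unadjusted p under 0.05).

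Among amino acid transporters, 4 of 20 were lower and 2 higher (median -0.24). This balance rested on single arrays: without LY294002 array 1 the list gave 3 lower and 4 higher with a median of 0.03, and without LY294002 array 2 it gave 2 lower and 0 higher. Without Rapamycin array 1 it gave 4 lower and 0 higher, and without Rapamycin array 2 it gave 4 lower and 1 higher. SLC7A2, a transporter of cationic amino acids, had 8.22 and 8.26 in LY294002 and 8.92 and 8.90 in Rapamycin, with 8.77 and 8.92 in DMSO (difference -0.67, SE 0.10, adjusted p = 0.000413). It was called with any array left out and in the cross-line comparison (-0.71, adjusted p = 0.00952). SLC7A5 and SLC3A2 form the heterodimer that imports leucine. SLC7A5 had 12.18 and 12.15 in LY294002, 12.50 and 12.59 in Rapamycin and 12.91 and 12.89 in DMSO (difference -0.38, adjusted p = 0.0127, and 0.101 without Rapamycin array 2 or 0.0746 without LY294002 array 2). SLC3A2 differed by -0.41 (adjusted p = 0.00541, and 0.0748 without LY294002 array 2) and by -0.11 on a second probe. In the cross-line comparison the list had 1 member higher, SLC38A2 at 0.61 (adjusted p = 0.0445), and SLC7A2 lower, with a median of -0.10.

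Serine, glycine and other amino acid synthesis, the group that holds ASNS, gave 3 lower and 0 higher of 16 (median -0.23). PYCR1, a proline synthesis enzyme, had 11.48 and 11.67 in LY294002, 12.05 and 12.18 in Rapamycin and 11.77 and 12.01 in DMSO (difference -0.54, adjusted p = 0.0133), with other PYCR1 probes at -0.22 and -0.33, and stood at 0.104 without LY294002 array 1 and 0.102 without Rapamycin array 2. PYCR3 and MTHFD1L differed by -0.39 and -0.36 (adjusted p = 0.025 and 0.0493), and stood at 0.136 and 0.203 without Rapamycin array 2 and 0.127 and 0.34 without LY294002 array 1. The list had 2 lower members without LY294002 array 2, 1 without Rapamycin array 1 and 0 without LY294002 array 1 or Rapamycin array 2. Against DMSO, LY294002 lowered 6 of these 16 genes and Rapamycin 5, where they lowered 13.8% and 4.09% of all genes. The cross-line comparison called 0 of 16 by limma (4 at an unadjusted p under 0.05).

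The wider ATF4 stress response gave 4 lower and 1 higher of 19 (median -0.02), and 1 lower in each of the 4 fits with an array left out. The member that was higher, DDIT4, encodes an inhibitor of mTOR complex 1 and had 12.10 and 12.41 in LY294002 and 11.67 and 11.92 in Rapamycin, with 12.22 and 11.96 in DMSO (difference 0.46, adjusted p = 0.0152). JDP2, a bZIP repressor, had 6.46 and 6.18 in LY294002 and 7.29 and 7.00 in Rapamycin (difference -0.83, adjusted p = 0.00697). DDIT4 stood at 0.178 and 0.14, and JDP2 at 0.0757 and 0.0682, without LY294002 array 2 and without Rapamycin array 1. The unfolded protein response gave 5 lower and 1 higher of 17 (median -0.15). Without LY294002 array 1 it gave 2 lower and the median turned to 0.05, without LY294002 array 2 it gave 2 lower, and without Rapamycin array 2 it gave 3 lower.

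PDIA6 and PDIA4, which help proteins form disulfide bonds in the endoplasmic reticulum, were among those that were lower. PDIA6 had 10.68 and 10.68 in LY294002, 11.14 and 11.15 in Rapamycin and 11.03 and 11.03 in DMSO (difference -0.47, SE 0.10, adjusted p = 0.00654), and this call held with any array left out. PDIA4 differed by -0.40 (adjusted p = 0.00734, and 0.0709 without LY294002 array 1 or 0.0562 without Rapamycin array 2). Translation factors gave 4 lower and 0 higher of 23 (median -0.08), led by EIF5A at -0.51 (adjusted p = 0.0141), EIF4G1 at -0.35 (0.0169) and EIF4A1 at -0.30 (0.0312), with -0.05 on a second EIF4A1 probe. Their list had 2 lower members without LY294002 array 2 and 1 without any other array. EIF5A stood at 0.132 without Rapamycin array 2, and EIF4G1 and EIF4A1 at 0.134 and 0.275 without LY294002 array 1. The cross-line comparison called 0 of the ATF4, 0 of the unfolded protein response and 0 of the translation factor genes by limma, where 4, 5 and 1 had an unadjusted p under 0.05.

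**Figure D3:**
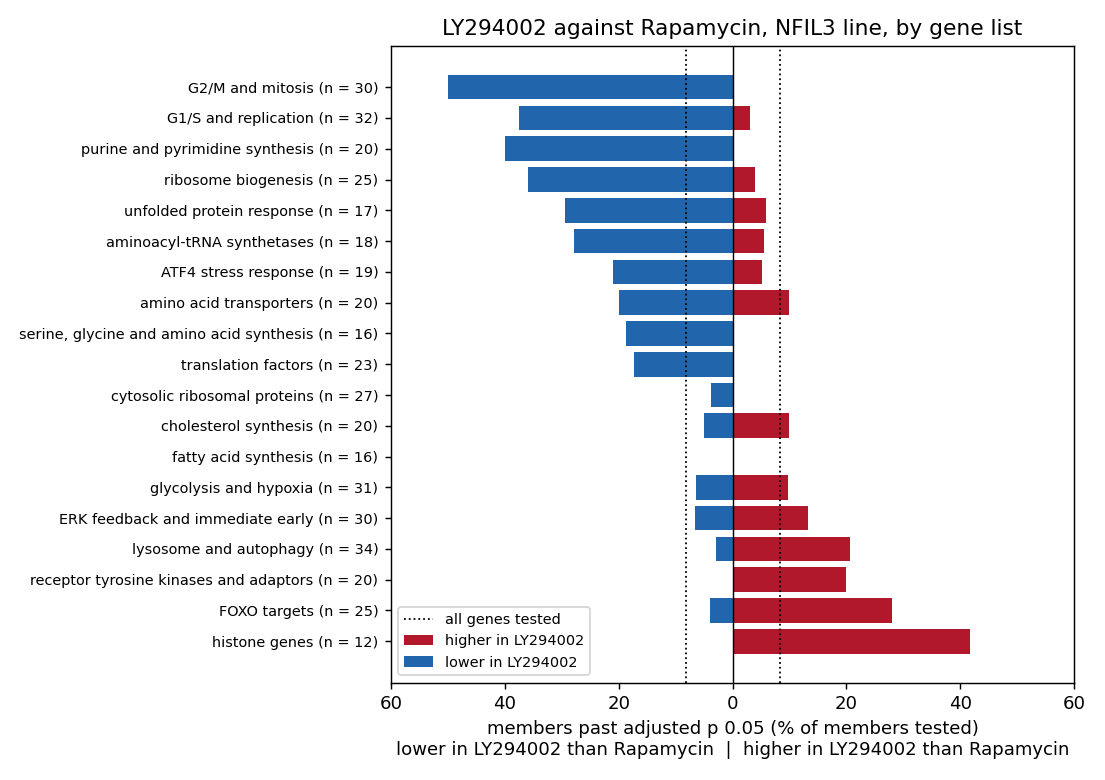
Share of the tested members of 19 gene lists (percent, horizontal axis) with an adjusted p under 0.05, to the right for genes higher and to the left for genes lower in LY294002 than in Rapamycin; dotted lines mark the shares over all 12141 genes, 8.38% and 8.09%. Mitosis, replication and nucleotide synthesis lists extend to the left, and histone and FOXO target lists to the right.

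Shares of members called in either direction are read against 16.5% of all genes. They were 15% in cholesterol synthesis, 16.1% in glycolysis and hypoxia, 17.4% in translation factors and 17.6% in Wnt targets. Further shares were 18.2% in laminins, collagens and integrins, 18.8% in amino acid synthesis, and 20% in ERK feedback genes and in receptor kinases and adaptors. Counts of these lists lie near the background and are given only to place their named members.

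FOXO targets gave 7 higher and 1 lower of 25 (median 0.30). Against DMSO, LY294002 raised 12 and lowered 1 and Rapamycin raised 2 and lowered 1. Over all genes LY294002 raised 12.1% and Rapamycin 3.53%. In the BOP1 and CKS2 lines LY294002 raised 16 and lowered 1 (18.6% and 21.2% of all genes). Beside IRS2, the called members were KLF6, FOXO3, CITED2, BCL6, CAT and GADD45B, with SOD2 lower. KLF6, a zinc finger transcription factor, had 12.27 and 12.30 in LY294002, 11.51 and 11.52 in Rapamycin and 11.86 and 11.58 in DMSO (difference 0.77, SE 0.12, adjusted p = 0.000817). LY294002 did not change it in the BOP1 and CKS2 lines by the same test (0.02, adjusted p = 0.91). With SB203580, mean KLF6 was 12.10 in CKS2 cells and 12.07 in NFIL3 cells, against 11.82 and 11.72 in DMSO.

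FOXO3 itself had 12.22 and 12.18 in LY294002, 11.68 and 11.73 in Rapamycin and 11.55 and 11.40 in DMSO (difference 0.50, SE 0.10, adjusted p = 0.00468). CITED2, a regulator of the coactivator CBP/p300, had 11.63 and 11.74 in LY294002 and 11.27 and 11.13 in Rapamycin (difference 0.48, adjusted p = 0.013). KLF6 and FOXO3 were called with any array left out. CITED2 stood at 0.0969 without LY294002 array 2 and 0.109 without Rapamycin array 2. The count of higher members was 3 without LY294002 array 2 or Rapamycin array 2, 5 without Rapamycin array 1 and 6 without LY294002 array 1. The cross-line median was 0.22, and IRS2 was the only member called there. TGTTTAC, a FOXO site, was found on either strand in 2 of 20 promoters of the list (10%), against 2.27% of promoters of tested genes. Other letters were searched too, and CACGTG, an E-box, was in 6 of the 20 (30%), against 10.3%. A share that rests on 2 promoters is too small to read, and a match is no evidence of a bound factor.

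Receptor tyrosine kinases and their adaptors gave 4 higher and 0 lower of 20 (median 0.10): IRS2, FGFR1, GRB7 and MET. The 20% called lies near the 16.5% of all genes, and IRS2 was the only member called in the cross-line comparison. FGFR1, the fibroblast growth factor receptor, had 6.88 and 6.38 in LY294002 and was below background on both Rapamycin arrays and both DMSO arrays. It was at least 1.63-fold higher in LY294002 than in Rapamycin, with measured means of 6.63 in LY294002 and 5.33 in Rapamycin (adjusted p = 0.00841, and 0.0774 without LY294002 array 1 or 0.0563 without Rapamycin array 1). GRB7, an adaptor of ERBB2, had 10.88 and 11.13 in LY294002, 10.58 and 10.64 in Rapamycin and 10.25 and 10.06 in DMSO (difference 0.40, adjusted p = 0.0309). MET, the receptor for hepatocyte growth factor, had 12.10 and 12.22 in LY294002 and 11.80 and 11.82 in Rapamycin (difference 0.35, adjusted p = 0.0315). The calls of GRB7 and MET were each lost in at least 3 of the 4 fits with an array left out, GRB7 at 0.251 without LY294002 array 2, 0.128 without Rapamycin array 1 and 0.0953 without Rapamycin array 2, and MET at 0.0534, 0.192, 0.116 and 0.113 without LY294002 arrays 1 and 2 and Rapamycin arrays 1 and 2.

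Genes of the pathway's own kinases and regulators passed at shares near the 16.5% of all genes, 16.7% in the PI3 kinase list and 17.9% in the AKT and mTOR list. Of 12 PI3 kinase subunits and phosphatases, 2 were higher and 0 lower: PIK3C2A, a class II PI3 kinase, at 0.43 (adjusted p = 0.0183) and PIK3IP1, an inhibitor of PI3 kinase, at 0.68 (0.0352). PIK3C2A stood at 0.0713, 0.0823 and 0.147 and PIK3IP1 at 0.192, 0.0658 and 0.223 without LY294002 arrays 1 and 2 and Rapamycin array 2, and PIK3IP1 at 0.0575 without Rapamycin array 1. Of 28 genes of AKT and the mTOR complexes, 3 were higher and 2 lower, and 0 passed in either direction without LY294002 array 2. In the cross-line comparison limma called 0 of the 12 and 0 of the 28 (2 and 5 at an unadjusted p under 0.05). TSC1, part of the brake on mTOR complex 1, had 11.13 and 11.26 in LY294002, 10.72 and 10.73 in Rapamycin and 10.71 and 10.65 in DMSO (difference 0.47, adjusted p = 0.00801, and 0.0761 without LY294002 array 2), and other TSC1 probes differed by 0.42 and -0.08. RPTOR, the scaffold of mTOR complex 1, had 8.66 and 8.66 in LY294002 and 8.93 and 9.27 in Rapamycin (difference -0.44, adjusted p = 0.0118, and 0.0533, 0.0623 and 0.168 without LY294002 arrays 1 and 2 and Rapamycin array 2), and a second probe by -0.06.

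Lysosome and autophagy genes gave 7 higher and 1 lower of 34 (median 0.09). CTSB and CTSD encode lysosomal proteases and went opposite ways. CTSB had 11.24 and 11.27 in LY294002, 10.43 and 10.72 in Rapamycin and 10.67 and 10.38 in DMSO (difference 0.68, SE 0.14, adjusted p = 0.00535). With SB203580, mean CTSB was 10.84 in CKS2 cells and 10.88 in NFIL3 cells, against 10.36 and 10.53 in DMSO. CTSD had 10.38 and 10.19 in LY294002, 10.77 and 10.81 in Rapamycin and 10.52 and 10.61 in DMSO (difference -0.51, SE 0.09, adjusted p = 0.00219). In the BOP1 and CKS2 lines CTSD rose with LY294002 (0.18, adjusted p = 0.044). GABARAPL1, which coats autophagosomes, had 11.17 and 11.34 in LY294002 and 10.80 and 10.85 in Rapamycin (difference 0.43, adjusted p = 0.00845, and 0.0905 without LY294002 array 2 or 0.0536 without Rapamycin array 1). With an array left out, 3 members were higher without Rapamycin array 1 and 2 without any other, and the cross-line comparison called 0 of 34 (5 at an unadjusted p under 0.05).

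ERK feedback and immediate early genes gave 4 higher and 2 lower of 30 (median 0.19). EGR1, an immediate early transcription factor, had 11.31 and 10.93 in LY294002, 11.71 and 11.49 in Rapamycin and 11.31 and 11.14 in DMSO (difference -0.48, adjusted p = 0.0108). JUN, a subunit of AP-1, had 9.33 and 9.43 in LY294002 and 9.02 and 8.90 in Rapamycin with 8.84 and 8.81 in DMSO (difference 0.42, adjusted p = 0.012). FOSL1, another AP-1 subunit, had 9.40 and 9.43 in LY294002 and 9.80 and 10.04 in Rapamycin (difference -0.50, adjusted p = 0.0214). Without LY294002 array 2, EGR1 stood at 0.155, JUN at 0.0949 and FOSL1 at 0.0848. EGR1 also stood at 0.105 without Rapamycin array 1, JUN at 0.101 and FOSL1 at 0.181 without Rapamycin array 2, and FOSL1 at 0.0862 without LY294002 array 1. The list had 2 higher members without LY294002 array 1, 1 without Rapamycin array 1 and 0 without either of the other 2. JUN was the only member called in the cross-line comparison (0.59, adjusted p = 0.0359).

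Histone genes stood out among the rises. Of 12 tested, 5 were higher and 0 lower, and all 12 had a positive difference (median 0.63). H4C14, a histone H4 gene, had 9.23 and 9.39 in LY294002, 8.35 and 8.23 in Rapamycin and 7.92 and 8.20 in DMSO (difference 1.02, SE 0.11, adjusted p = 0.000101). H2BC5, a histone H2B gene, had 12.27 and 12.68 in LY294002 and 11.56 and 11.63 in Rapamycin (difference 0.88, SE 0.15, adjusted p = 0.0011). In both genes the groups did not overlap and the Rapamycin arrays lay close above the DMSO arrays.

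The H2A genes H2AC18 and H2AC6 differed by 0.86 and 0.93 (adjusted p = 0.000564 and 0.00167), and the H2B gene H2BC21 by 0.72 (adjusted p = 0.00885). All but H2BC21 were called with any array left out, and H2BC21 stood at 0.063 without LY294002 array 2 and 0.0911 without Rapamycin array 2. LY294002 raised 10 of 12 histone genes and lowered 1 in the BOP1 and CKS2 lines (18.6% and 21.2% of all genes). The cross-line comparison called H4C14, H2BC5, H2AC18 and H2AC6 higher and 0 of 12 lower (median 0.61), H4C14 at 1.24 (adjusted p = 0.00059). Histone genes are near-identical copies of each other, so a probe may read more than one of them.

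Some lipid synthesis genes fell with each inhibitor. Of 20 cholesterol synthesis genes LY294002 lowered 9 and raised 2 against DMSO, and Rapamycin lowered 7 and raised 1. Over all genes LY294002 lowered 13.8% and raised 12.1%, and Rapamycin lowered 4.09% and raised 3.53%. These counts use the same DMSO arrays, and they do not say whether the same genes fell. The direct comparison called 2 higher and 1 lower (median -0.01). HSD17B7, an enzyme late in that pathway, had 11.46 and 11.26 in LY294002 and 10.45 and 10.79 in Rapamycin with 10.94 and 10.68 in DMSO (difference 0.74, SE 0.16, adjusted p = 0.00536, and 0.065 without Rapamycin array 1). PMVK, the phosphomevalonate kinase, was lower, at -0.50 (adjusted p = 0.00407). Of 16 fatty acid synthesis genes, 0 passed the limma test in either direction (median 0.13, 7 at an unadjusted p under 0.05). Against DMSO, LY294002 lowered 5 of them and Rapamycin 4, to be read against the same shares of all genes.

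Glycolysis and hypoxia genes gave 3 higher and 2 lower of 31 (median -0.06). HK2, the hexokinase that starts glycolysis in many tumours, had 8.70 and 8.88 in LY294002, 9.51 and 9.54 in Rapamycin and 10.13 and 10.10 in DMSO (difference -0.74, SE 0.11, adjusted p = 0.000579). Its 3 groups did not overlap and lay in the order seen for LAMA2, while a second HK2 probe differed by -0.15. HK2 was called with any array left out, fell by 1.26 in the BOP1 and CKS2 lines and was called in the cross-line comparison (-0.67, adjusted p = 0.031). ALDOC, a brain-enriched aldolase, had 11.88 and 12.09 in LY294002, 11.55 and 11.54 in Rapamycin and 12.37 and 12.20 in DMSO (difference 0.45, adjusted p = 0.0133). ALDOC fell with Rapamycin by 0.74 against DMSO and missed the direct threshold without LY294002 array 2 (0.135), Rapamycin array 1 (0.0587) or Rapamycin array 2 (0.0713), though it passed in the cross-line comparison (0.82, adjusted p = 0.00972).

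The 5 largest rises of all were small non-coding RNAs. Most of these RNAs have no poly(A) tail, while the labelling used a total RNA amplification kit, and how the arrays came to read them was not tested. Classes were taken from symbol prefixes after the values were seen. Of 11 spliceosomal and related RNAs (RNU and RNVU), 9 were higher and 0 lower, with a median of 1.22. Of 12 small Cajal body RNAs (SCARNA), which guide the modification of spliceosomal RNAs, 8 were higher and 0 lower, with a median of 0.95. The nucleolar classes had medians near 0. Of 63 SNORA genes 4 were higher and 1 lower (7.94% called, median 0.06), and of 76 SNORD genes 9 were higher and 2 lower (14.5%, median -0.02), against 16.5% called over all genes.

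RN7SK, the RNA that holds the elongation factor P-TEFb inactive, had 11.59 and 11.83 in LY294002, 9.95 and 10.18 in Rapamycin and 10.14 and 10.21 in DMSO. The LY294002 arrays stood far above the other 4, the difference was 1.65 (SE 0.13, adjusted p = 1.04e-05), and a second probe differed by 2.35. RNU4-2, the U4 spliceosomal RNA, had 9.29 and 9.57 in LY294002 and 7.75 and 7.62 in Rapamycin (difference 1.75, SE 0.18, adjusted p = 9.15e-05). Both also rose with LY294002 in the BOP1 and CKS2 lines, by 1.34 and 1.10, and passed in the cross-line comparison (1.45, adjusted p = 0.00059, and 1.51, adjusted p = 0.00441).

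For 3 other small RNAs of this group, the mean difference with LY294002 in the BOP1 and CKS2 lines was smaller and did not pass. SCARNA16 had 8.93 and 9.09 in LY294002, 7.55 and 7.57 in Rapamycin and 8.07 and 7.49 in DMSO (difference 1.45, SE 0.17, adjusted p = 0.000134), and LY294002 moved it by -0.05 in those lines. Its LY294002 effect differed between the NFIL3 line and the other lines by 1.28 (adjusted p = 0.0212 for the difference itself). SCARNA8 had 9.10 and 9.06 in LY294002 and 7.60 and 7.34 in Rapamycin (difference 1.61, adjusted p = 0.000419), against 0.23 with LY294002 in the other lines. SNORA79 had 9.59 and 9.97 in LY294002 and 8.35 and 8.16 in Rapamycin (difference 1.52, adjusted p = 0.00199), against 0.03 there. LY294002 passed for none of these 3 in the other lines (adjusted p = 0.769, 0.285 and 0.923). For SCARNA8 and SNORA79 the difference between lines did not pass (0.0681 and 0.0616). The BOP1 and CKS2 lines did not move alike in SCARNA16 and SCARNA8. From DMSO to LY294002, mean SCARNA16 levels went from 7.68 to 7.92 in BOP1 cells and from 7.74 to 7.40 in CKS2 cells. Those of SCARNA8 went from 7.67 to 8.13 in BOP1 cells and from 7.72 to 7.71 in CKS2 cells.

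SNORD13, which takes part in ribosomal RNA acetylation, had 11.37 and 11.78 in LY294002 and 9.78 and 9.82 in Rapamycin (difference 1.77, SE 0.20, adjusted p = 0.000101) and rose by 0.76 in the other lines. SCARNA14, the largest rise, had 8.49 and 8.04 in LY294002 and 5.97 and 6.64 in Rapamycin, where 1 of 2 arrays was above background (difference 1.96, SE 0.39, adjusted p = 0.00371). From DMSO to LY294002 its mean went from 6.03 to 7.35 in BOP1 cells and from 6.62 to 6.89 in CKS2 cells. In BOP1 cells 1 of 2 DMSO arrays was above background. The 28S ribosomal RNA probe of RNA28SN5 had 13.51 and 13.62 in LY294002, 12.05 and 12.15 in Rapamycin and 13.32 and 12.69 in DMSO (difference 1.46, adjusted p = 0.00231), and a second probe differed by 3.44. With SB203580 the mean of the first probe was 13.73 in CKS2 cells and 13.64 in NFIL3 cells, against 12.75 and 13.01 in DMSO. The high level was thus not particular to LY294002. In the NFIL3 line the DMSO arrays lay between LY294002 and Rapamycin, and in the other lines LY294002 moved this RNA the opposite way (-0.57). All these calls held with any array left out. In the cross-line comparison 5 of 11 RNU and RNVU genes were called higher and 0 of 12 SCARNA genes (3 at an unadjusted p under 0.05), with medians of 0.95 and 0.19.

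**Figure D4:**
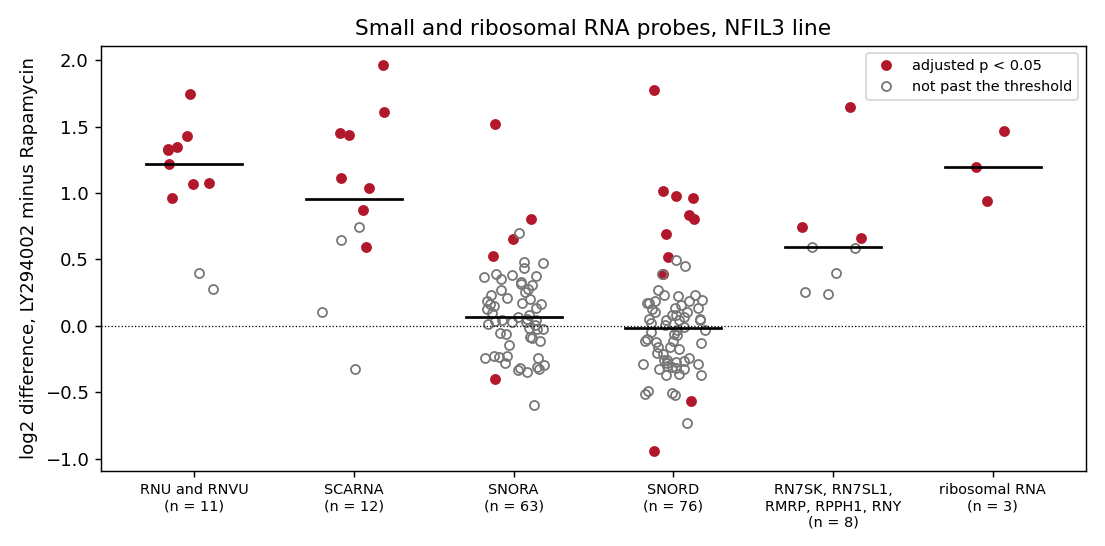
Log2 difference, LY294002 minus Rapamycin in the NFIL3 line, for each tested small or ribosomal RNA, grouped by class along the horizontal axis; filled red points have an adjusted p under 0.05, open points do not, and bars are class medians. Spliceosomal and, but for 1, Cajal body RNAs lie above 0, with medians of 1.22 and 0.95, while the nucleolar SNORA and SNORD classes are spread around 0.

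Protein-coding genes among the 12 largest rises were GBP2, GALNT3 and DST. GBP2, an interferon-induced GTPase, had 7.26 and 7.38 in LY294002 and was below background on both Rapamycin arrays. It was at least 2.62-fold higher, with measured means of 7.32 in LY294002 and 5.75 in Rapamycin (adjusted p = 0.000502). LY294002 also raised it in the BOP1 and CKS2 lines (adjusted p = 3.92e-05), where it was above background on 4 of 4 LY294002 arrays and 1 of 4 DMSO arrays, and the cross-line comparison called it higher (adjusted p = 0.0276), so the direction holds there and the size is not given. GALNT3, which starts mucin-type O-glycosylation, was also below background in Rapamycin and DMSO. It was at least 1.73-fold higher in LY294002, with measured means of 6.72 in LY294002 and 5.17 in Rapamycin (adjusted p = 0.00421, and 0.0518 without Rapamycin array 1). In the other lines it was above background on 2 of 4 LY294002 arrays and 0 of 4 DMSO arrays, so no difference is given there. The pseudogene GSTTP2 had 7.45 and 7.66 in LY294002 and 5.71 and 6.36 in Rapamycin, where 1 of 2 arrays was above background (difference 1.52, adjusted p = 0.000719). GSTTP2 did not pass in the cross-line comparison (adjusted p = 0.553).

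DST encodes dystonin, which links intermediate filaments to hemidesmosomes. It had 8.18 and 8.15 in LY294002, 6.80 and 6.64 in Rapamycin and 6.12 and 5.80 in DMSO, 3 groups without overlap (difference 1.44, SE 0.19, adjusted p = 0.000192). LY294002 raised it by 2.21 and Rapamycin by 0.76 against DMSO. Other DST probes differed by 1.07 and 0.79. LY294002 raised DST by 0.93 in the BOP1 and CKS2 lines, which is less than in the NFIL3 line by 1.28 (adjusted p = 0.0215 for that difference). DST was above background on 1 of 2 DMSO arrays of the NFIL3 line, so 2.21, 0.76 and 1.28 are not exact sizes.

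Among the 12 largest falls, PDX1, a homeobox factor of pancreas and duodenum, had 6.11 and 6.06 in LY294002, 7.63 and 7.42 in Rapamycin and 7.95 and 8.00 in DMSO. The LY294002 arrays lay far below the others, and the difference of -1.44 (SE 0.12) had an adjusted p of 1.20e-05. GAL, the neuropeptide galanin, had 10.07 and 9.74 in LY294002, 10.98 and 11.15 in Rapamycin and 11.17 and 11.27 in DMSO (difference -1.16, SE 0.16, adjusted p = 0.00033). GAL did not pass between Rapamycin and DMSO (-0.16, adjusted p = 0.594) and fell by 1.35 with LY294002 in the other lines. MRAP2, an accessory protein of melanocortin receptors, had 6.44 and 6.77 in LY294002, 7.71 and 7.76 in Rapamycin and 8.30 and 8.33 in DMSO (difference -1.13, SE 0.14, adjusted p = 0.000143), and fell in steps as LAMA2 did.

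KRT13 and FABP6 were lowest in LY294002 and highest in Rapamycin. KRT13, a keratin of stratified epithelia, had 6.92 and 6.85 in LY294002, 8.24 and 8.40 in Rapamycin and 7.79 and 7.57 in DMSO (difference -1.43, SE 0.18, adjusted p = 0.000167). Against DMSO it fell by 0.79 with LY294002 and rose by 0.64 with Rapamycin. FABP6, the ileal bile acid binding protein, had 6.44 and 6.26 in LY294002 and 7.97 and 7.50 in Rapamycin with 7.10 and 7.32 in DMSO (difference -1.38, SE 0.17, adjusted p = 0.000154), while a second probe differed by -0.82. The calls of PDX1, GAL, MRAP2, KRT13 and FABP6 held with any array left out, and all but PDX1 (-0.63, adjusted p = 0.0518) passed in the cross-line comparison.

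LCP1, an actin-bundling protein, TFR2, a transferrin receptor, TRIM16L and GREB1 were below background on both LY294002 arrays. DMBX1 was above background on 1 of 2, so its size is not exact. LCP1 was at least 1.46-fold lower, with measured means of 5.38 in LY294002 and 6.52 in Rapamycin (adjusted p = 0.000827). TFR2 was at least 1.37-fold lower, with 5.30 in LY294002 and 6.42 in Rapamycin (adjusted p = 0.00238). TRIM16L was at least 1.93-fold lower, with 5.30 in LY294002 and 6.92 in Rapamycin (adjusted p = 0.0266). GREB1 was at least 1.25-fold lower, with 5.07 in LY294002 and 6.30 in Rapamycin (adjusted p = 0.0245).

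LCP1 and TFR2 held with any array left out and passed in the cross-line comparison (adjusted p = 0.0466 and 0.0359), where both were below background on the 4 LY294002 arrays of the other lines, so that only the direction is given. Without LY294002 arrays 1 and 2 and Rapamycin arrays 1 and 2 in turn, TRIM16L stood at 0.114, 0.0858, 0.163 and 0.0503 and GREB1 at 0.107, 0.0805, 0.0967 and 0.0934. RPRML and DMBX1, the remaining genes of this group, differed by -1.15 and -1.14 (adjusted p = 0.00993 and 0.00538) and stood at 0.128 and 0.087 without LY294002 array 2, with RPRML at 0.0739 without Rapamycin array 2.

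Among 22 laminin, collagen and integrin genes, 3 were higher and 1, LAMA2, was lower. With an array left out 1 was higher, or 2 without Rapamycin array 2. ITGA2, the collagen-binding integrin alpha 2 chain, had 10.69 and 10.76 in LY294002, 9.50 and 9.71 in Rapamycin and 10.29 and 10.01 in DMSO (difference 1.12, SE 0.16, adjusted p = 0.000449), with the DMSO arrays between the inhibitors. LY294002 moved it by -0.03 in the other lines (adjusted p = 0.855). With SB203580, mean ITGA2 was 11.14 in CKS2 cells and 11.12 in NFIL3 cells, against 10.00 and 10.15 in DMSO. The high level was thus not particular to LY294002. ITGB4, the hemidesmosome integrin chain, had 13.15 and 13.26 in LY294002, 12.71 and 12.96 in Rapamycin and 12.18 and 12.13 in DMSO (difference 0.37, adjusted p = 0.0394). Both inhibitors raised ITGB4 over DMSO, by 1.05 and 0.68, and the direct call was lost without LY294002 array 1 (0.0755), LY294002 array 2 (0.201) or Rapamycin array 1 (0.268).

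Epithelial junction and keratin genes gave 3 higher and 3 lower of 23, and 1 or 2 in each direction with any array left out. In the main fit these were 13.0% of the list in each direction, against 8.38% higher and 8.09% lower over all genes. The cross-line comparison called 0 of 23 by limma (5 at an unadjusted p under 0.05). KRT18, a keratin of simple epithelia, had 8.49 and 8.48 in LY294002, 9.14 and 9.44 in Rapamycin and 8.83 and 8.94 in DMSO (difference -0.81, SE 0.13, adjusted p = 0.000835). CLDN3, a tight junction claudin, had 9.67 and 9.66 in LY294002 and 8.90 and 9.11 in Rapamycin (difference 0.66, adjusted p = 0.00801, and 0.0717 without Rapamycin array 1). Of 17 Wnt targets 3 were lower and 0 higher, and 1 was lower in each of the 4 fits with an array left out. They were led by AXIN2, a scaffold that restrains beta-catenin, with 11.50 and 11.53 in LY294002, 11.98 and 12.11 in Rapamycin and 11.95 and 12.10 in DMSO (difference -0.53, SE 0.09, adjusted p = 0.000829). KRT18 and AXIN2 were called with any array left out but did not pass in the cross-line comparison (-0.42, adjusted p = 0.204, and -0.34, adjusted p = 0.112).

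The p53 target list gave 3 higher and 2 lower of 17, but 0 lower with any array left out and 1 higher without Rapamycin array 2 or 2 without LY294002 array 1. It was led by ZMAT3, an RNA-binding protein, with 12.83 and 12.87 in LY294002, 11.75 and 11.80 in Rapamycin and 12.27 and 11.74 in DMSO (difference 1.07, SE 0.18, adjusted p = 0.00116), and other ZMAT3 probes differed by -0.02 and 0.76. ZMAT3 stood at 0.13 with LY294002 in the other lines (adjusted p = 0.44). With SB203580, mean ZMAT3 was 12.75 in CKS2 cells and 12.66 in NFIL3 cells, against 11.88 and 12.01 in DMSO. In the cross-line comparison TP53INP1 was the only member called (0.65, adjusted p = 0.0466). The main fit called 17.6% of the p53 list higher and 11.8% lower, against 8.38% and 8.09% over all genes. Marker lists of other cell types were mostly undetected. Leukocyte markers had 4 of 12 members tested, with CD68 and ITGAM called higher (0.75 and 0.63, adjusted p = 0.0106 and 0.0305). A linear level was summed over all probes of the 11 members with a probe, of which 4 were detected, so background is included. This sum was 1539 to 1541 in LY294002, 1359 to 1428 in Rapamycin and 1275 to 1282 in DMSO. A second CD68 probe went the opposite way, at -0.38, and the CD68 call was lost with the mean over probes. CD68 stood at 0.0745 without LY294002 array 2 and 0.0614 without Rapamycin array 2, and ITGAM at 0.0933 to 0.128 with any array left out. Hepatocyte markers had 3 of 8 tested, among them ALB, which was higher (1.10, SE 0.18, adjusted p = 0.000897), and SERPINA1, which was lower (-0.73, adjusted p = 0.00396, and 0.0539 without LY294002 array 1). Fibroblast and endothelial markers had 2 of 10 and 1 of 9 tested, with 0 called at the adjusted limma threshold. The part of these markers in the results was not tested.

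The LY294002 arrays of the BOP1 and CKS2 lines share no array with the direct comparison. Over all genes tested, LY294002 raised 18.6% and lowered 21.2% in those lines. Of the 1018 genes higher in LY294002 than in Rapamycin, 364 rose with LY294002 in those lines, which is 35.8% of the direct list and 16.1% of the 2254 genes that rose there, and 103 (10.1%) fell. Of the 982 lower genes, 505 fell there, which is 51.4% of the direct list and 19.6% of the 2572 genes that fell, and 51 (5.19%) rose. The median LY294002 effect in those lines was 0.14 over the genes that were higher in the direct comparison and -0.24 over those that were lower, where the direct medians were 0.57 and -0.50. Tested as a difference between the NFIL3 line and the other lines, the signed LY294002 effect was higher in the NFIL3 line for 107 genes (0.881%) and lower for 13 (0.107%).

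**Figure D5:**
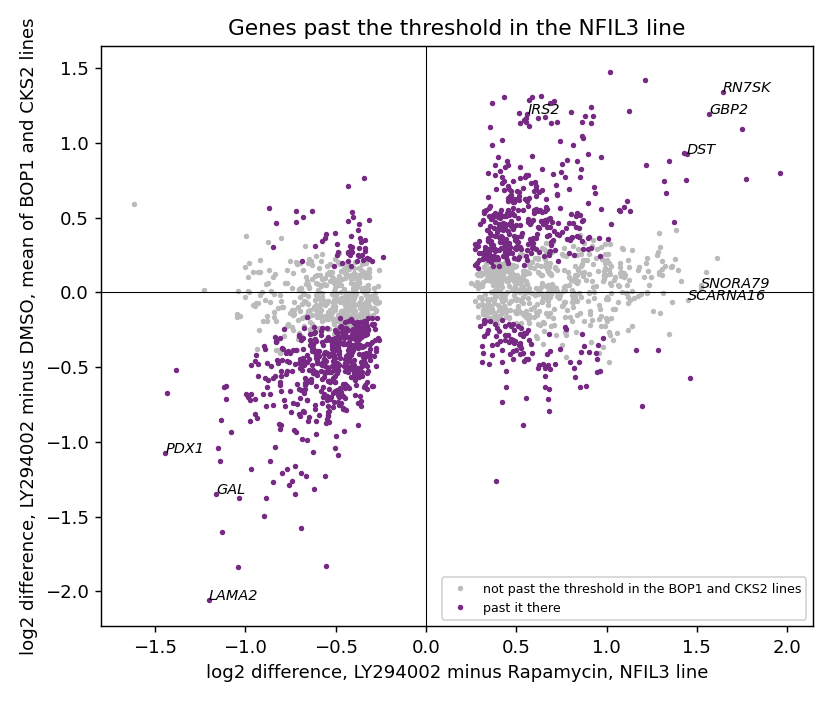
Each point is 1 of the 2000 genes called between LY294002 and Rapamycin in the NFIL3 line, with that log2 difference on the horizontal axis and the log2 LY294002 minus DMSO difference, the mean of the BOP1 and CKS2 lines, on the vertical axis; purple points passed an adjusted p of 0.05 in those lines. LAMA2, GAL, PDX1, RN7SK, GBP2, DST and IRS2 lie away from 0 on both axes, while SCARNA16 and SNORA79 lie near 0 on the vertical one.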

How the data were processed

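Each of 24 arrays of SW480 cells, 2 per group in 12 groups, had a deposited non-normalized intensity and a detection p-value for each of 47323 probes, per the file headers. GenomeStudio 2010.1 and Partek are named in the submitters' processing notes, with no role given. The authors' deposited processed table also held an intensity per probe, on a linear scale, and was used as an alternative.

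The deposited intensity was background-corrected, quantile normalized and put on a log2 scale with neqc of limma 3.58.1 (R 4.3.3; offset 16), with the detection p-values standing in for negative controls. Probes with a detection p under 0.01 on at least 2 arrays were kept (21608). Of all probes, 30113 had 1 gene symbol in the platform annotation, 8 had several and 17202 none. The probe with the highest mean level stood for its gene, which left 12141 genes. One limma model with a coefficient per group was fitted to all arrays, with Benjamini-Hochberg adjustment over all genes, 12 residual degrees of freedom and a prior of 4.44. The fit was tested on simulated data. A gene below background on both arrays of a group was given as "at least", against the higher of its own signal and the lowest detected signal. With 2 arrays per group, p-values measure only the spread between same-group arrays, which the labels call biological replicates. That spread was pooled over all 12 groups and combined with the prior, so it is not that of the compared arrays alone. The number of arrays limits the precision.

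Named genes were the 3 markers, the 12 largest rises and 12 largest falls without overlap among called genes, and, from each of 45 gene lists, the 4 genes or fewer of lowest p. Members and lists were chosen with earlier results of these data known. Promoters came from RefSeq (GRCh38.p14). Alternatives were the processed table, quantile normalization alone, other detection filters, the mean over probes, fits to only the compared arrays, a replicate block, other moderation, a stricter threshold and leaving out each array.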

Additional observations from a re-analysis of the deposited data

Results flagged for a closer look

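For 4 named genes the LY294002 effect against DMSO differed between the NFIL3 line and the mean of the BOP1 and CKS2 lines, in a limma test of the difference itself that was added after the data were seen. The difference was 1.28 for SCARNA16 (adjusted p = 0.0212), 1.28 for DST, -0.81 for PDX1 and 1.76 for AKT2 (adjusted p = 0.0215 for each of these 3). The AKT2 value rests in part on arrays below background: it was above background on 0 of 2 DMSO arrays of the NFIL3 line and on 2 of the 4 LY294002 arrays of the BOP1 and CKS2 lines, so its size is not exact. The size for DST is not exact either, as DST was above background on 1 of 2 DMSO arrays of the NFIL3 line. AKT2, one of the AKT kinases, had levels of 7.00 and 7.03 in LY294002, 5.72 and 6.29 in Rapamycin and 5.83 and 5.60 in DMSO in the NFIL3 line. AKT2 was above background on 1 of 2 Rapamycin arrays. Its direct difference of 1.01 (adjusted p = 0.0148) was lost without LY294002 array 1 (0.0588), LY294002 array 2 (0.0766) or Rapamycin array 1 (0.141), and LY294002 did not pass for it in the BOP1 and CKS2 lines (adjusted p = 0.0551).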

How the results depend on the processing

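The 2000 genes called between LY294002 and Rapamycin became 764 in a fit to only the compared arrays (62.2% of them higher, against 50.9%), 798 at an adjusted p under 0.01, and 151 in the cross-line comparison, or 131 there with the replicate block, both added after the data were seen. Leaving out 1 array gave 880 to 1244, with 59.1% higher without Rapamycin array 2. The 3148 genes of LY294002 against DMSO became 1731 and 1649 under the first and second of these settings and 1635 to 2374 with an array left out. The 924 genes of Rapamycin against DMSO became 553 without a detection filter, 194 at the stricter threshold, 164 to 341 with an array left out and, in the limma fit to only the compared arrays, 0, with 2652 at an unadjusted p under 0.05. The 4826 genes of LY294002 over the BOP1 and CKS2 lines became 3174 at the stricter threshold and 3999 to 4592 with an array left out. The processed table gave 2248, 3395, 1207 and 5004 genes for the 4 comparisons in the same order, and quantile normalization alone 2271, 3454, 1242 and 5048.

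Deviations of same-numbered arrays correlated at r = -0.00127 between LY294002 and Rapamycin in the NFIL3 line, but at 0.291 and 0.106 between that Rapamycin and LY294002 in the CKS2 and BOP1 lines and at 0.114 between these last groups. Not every pair reached 0.1, so the numbers were not taken to pair the samples, and a model with the replicate block gave 1949, 3125, 887 and 4786 genes. Of 138 named genes called, 57 kept their call with any array left out and 67 under each other alternative apart from the stricter threshold and the cross-line comparison, and 0 reversed. In the fit to only the compared arrays 69 lost the call, and among genes given in the text these were ADAM10, ALDOC, B2M, BIRC5, CDT1, CITED2, CTSD, DDIT4, DMBX1, EGR1, EIF4A1, EIF4G1, EIF5A, FARSB, FOSL1, FOXO3, GABARAPL1, GRB7, IRF1, ITGB4, JUN, KRT19, MET, MMP7, MTHFD1L, PDIA4, PDIA6, PIK3C2A, PIK3IP1, PMVK, PRPS1, PYCR1, PYCR3, RPL5, RPTOR, SERPINA1, SLC38A2, SLC3A2, SLC7A5, SPP1, TPX2, TSC1 and WARS1. In the cross-line comparison AKT2 (-0.75), OASL (0.0386), MMP7 (0.00653) and ITGAM (-0.17) had the opposite sign, and the cause was not tested. MMP7 was below background on every LY294002 and Rapamycin array. Arrays with 2 samples per group resolve a median standard error of 0.129, and genes near background carry only bounds.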

Other observations

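Of 29 interferon response genes, which the text has not described, 3 (10.3%) were higher and 3 (10.3%) lower in LY294002 than in Rapamycin (median -0.04). Over all genes the shares were 8.38% and 8.09%, so these counts lie near the background and only place the named members. OAS3, a sensor of double-stranded RNA, had 9.88 and 9.95 in LY294002, 10.50 and 10.64 in Rapamycin and 10.77 and 10.87 in DMSO (difference -0.65, limma adjusted p = 0.00085), and passed in the cross-line comparison (-0.61, adjusted p = 0.0341). IRF1, a transcription factor of the same response, had 10.15 and 10.22 in LY294002 and 9.74 and 9.73 in Rapamycin (difference 0.45, adjusted p = 0.00489). Both calls held with any array left out, but IRF1 did not pass in the cross-line comparison (0.37, adjusted p = 0.123). The list had 1 to 3 members called in each direction with an array left out. The other calls were IRF7 and B2M, which were higher, and IFITM1 and OASL, which were lower.

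SPP1, the secreted matrix protein osteopontin, had 7.92 and 7.73 in LY294002, 8.47 and 8.29 in Rapamycin and 8.91 and 9.04 in DMSO (difference -0.55, adjusted p = 0.0395). The call was lost with any array left out (adjusted p = 0.0695 to 0.211), while SPP1 fell by 1.83 with LY294002 in the BOP1 and CKS2 lines and the cross-line comparison called it (-1.23, adjusted p = 0.0123). ADAM10, a protease that sheds membrane proteins, had 10.76 and 10.82 in LY294002 and 10.35 and 10.36 in Rapamycin (difference 0.44, adjusted p = 0.00562), while a second probe differed by 0.11. Its call was lost with the mean over probes, in the fit to only the compared arrays and in the cross-line comparison (0.18, adjusted p = 0.462).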
